A study of Mus musculus with 4 samples.

Results

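The 1788 accessible intervals that lie at the centromere-proximal start of the mouse autosomes were examined here, out of 119609 in the whole set. They were chosen by position alone, as the intervals on chromosomes 1 to 19 that begin before 5 Mb in the mm9 genome, in which the sequence of every autosome starts at 3 Mb, and all 1788 could be tested. Of these, 190 began before 3.2 Mb, 295 between 3.2 and 3.5 Mb, 398 between 3.5 and 4 Mb and 905 between 4 and 5 Mb. The groups were +HOT, iMEF2 cells kept for 7 days in 5 nM 4-hydroxytamoxifen (HOT), and -HOT, the same line kept in ethanol, the solvent of the drug. iMEF2 is 1 line of mouse embryo fibroblasts, immortalized with a short hairpin RNA against p19Arf, in which exon 4 of Ash2l is flanked by loxP sites and a tamoxifen-dependent Cre recombinase is expressed, so both groups carry the floxed gene, the recombinase and the hairpin. Ash2l is a core subunit of the KMT2 complexes, which methylate H3K4. ATAC-seq, a measure of open chromatin by transposase cutting, was run on 2 libraries per group that the study calls technical replicates, so p-values measure the spread between libraries and not between cultures. Drug-treated cells with wild-type Ash2l were not analysed here, and loss of Ash2l cannot be told apart from any action of HOT or Cre itself.

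The +HOT libraries held 28117900 and 21356440 reads in intervals and the -HOT libraries 37151163 and 30411621. Levels are counts per 10⁶ reads (CPM) after trimmed-mean scaling, and edgeR's quasi-likelihood test gave the log2 fold changes, positive where +HOT was higher. An interval was called gained or lost at a Benjamini-Hochberg adjusted p under 0.05 over all 119603 tested intervals together with an absolute log2 fold change over 0.40. edgeR draws the spread behind its p-values and standard errors (SE) partly from other intervals. Both can therefore be too small where the libraries of a group lie unusually far apart. At the Ash2l promoter (chromosome 8, 26950375 to 26952151) there were 30.9 and 25.3 CPM in +HOT, against 35.6 and 31.6 CPM in -HOT, a log2 fold change of -0.25 that was not called. Reads at a promoter do not show whether the exon was deleted. Promoter intervals were found for 9 of 10 fibroblast markers, with medians of 26.7 CPM in +HOT and 38.6 CPM in -HOT, and for 6 of 8 markers of other cell types, with medians of 3.91 CPM in +HOT and 6.26 CPM in -HOT. The lists overlapped, with -HOT values of 3.03 to 81.2 CPM for the first and 0.86 to 25.1 CPM, the top at Cd14, for the second. Dcn and Lum of the first list and Myod1 of the second went against the medians and were higher in both +HOT libraries.

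Mouse chromosomes carry their centromere at one end, so the first sequenced bases border the pericentromeric heterochromatin. That heterochromatin is built on long tandem arrays of satellite DNA, is packed with repressive histone marks and DNA methylation, and is usually closed to transposase. The arrays themselves are mostly missing from the assembly, but stretches of them and of other tandem repeats remain at the start of some chromosomes. Because the units are nearly the same, a short read from one copy can be placed at another.

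Tandem repeats made up much of the first sequence at 5 chromosome starts, and they are printed because every interval before 3.2 Mb that was built of them was gained. The first kind repeats about every 234 bases, the unit length of mouse major satellite, and is AT-rich. The following lines give 2 neighbouring units from the chromosome 9 interval 3031723 to 3032952 (plus strand, from the NCBIM37 reference, which is mm9), unit 1 at chr9:3032104-3032337 and unit 2 at chr9:3032338-3032571. Capitals in unit 2 mark the 7 positions at which it differs from unit 1.
chr9 unit 1: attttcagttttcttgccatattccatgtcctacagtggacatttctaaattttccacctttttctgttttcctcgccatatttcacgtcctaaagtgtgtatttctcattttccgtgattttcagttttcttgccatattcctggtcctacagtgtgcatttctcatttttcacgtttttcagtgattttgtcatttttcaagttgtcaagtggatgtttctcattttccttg
chr9 unit 2: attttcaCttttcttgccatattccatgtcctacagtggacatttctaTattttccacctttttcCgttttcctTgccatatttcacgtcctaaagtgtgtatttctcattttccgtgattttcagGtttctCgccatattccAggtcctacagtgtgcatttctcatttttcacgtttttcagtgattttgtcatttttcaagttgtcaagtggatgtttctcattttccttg
This interval held 148.0 and 218.6 CPM in +HOT, against 69.9 and 102.7 CPM in -HOT, and of its 31-base words only 9.33% occur once in the genome.

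The second kind repeats about every 21 bases and has a balanced base composition. It was found on chromosomes 3, 4 and 17, and the central 210 bases of the most regular interval on each are given on the plus strand, from chr3:3011149-3011358, chr4:3009248-3009457 and chr17:3020213-3020422. Capitals mark CACTGTGA on either strand, the most frequent word of 8 bases in these intervals.
chr3: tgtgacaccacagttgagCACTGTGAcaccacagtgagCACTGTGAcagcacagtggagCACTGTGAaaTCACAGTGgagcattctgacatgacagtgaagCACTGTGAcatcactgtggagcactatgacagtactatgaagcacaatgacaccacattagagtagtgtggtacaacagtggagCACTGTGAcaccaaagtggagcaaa
chr4: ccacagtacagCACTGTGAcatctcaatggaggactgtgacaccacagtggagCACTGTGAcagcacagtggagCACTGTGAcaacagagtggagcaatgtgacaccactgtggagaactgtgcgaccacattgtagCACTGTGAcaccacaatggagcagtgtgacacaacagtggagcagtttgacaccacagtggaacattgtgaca
chr17: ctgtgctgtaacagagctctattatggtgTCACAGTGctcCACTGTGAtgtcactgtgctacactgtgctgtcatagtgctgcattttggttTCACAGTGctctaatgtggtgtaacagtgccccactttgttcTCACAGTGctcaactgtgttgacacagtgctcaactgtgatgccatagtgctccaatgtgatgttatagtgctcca
The word occurred 17.4 times per kb in the 26 intervals of this kind and 0.0882 times per kb over all intervals, of which 6.49% hold at least 1 copy. It was picked for its frequency, so this is a description of the repeat and not a test.

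In +HOT cells the very start of the chromosomes was more accessible, and this faded within 0.2 Mb. Of the 190 intervals before 3.2 Mb, 124 were gained and 8 lost, or 65.3% and 4.21%, whereas 21.3% of all tested intervals were gained and 14.2% lost. Their median log2 fold change was 1.18, with 0.63 to 1.57 when each +HOT library was set against each -HOT library, beside a median of 0.00 over all tested intervals. Past 3.2 Mb the shares were near those of the whole set, with 23.4%, 22.4% and 21.7% gained and 12.2%, 15.3% and 15.9% lost in the 3 successive bins. Medians there were 0.01, -0.02 and -0.01. Over all 1788 intervals 478 were gained and 249 lost.

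**Figure D1:**
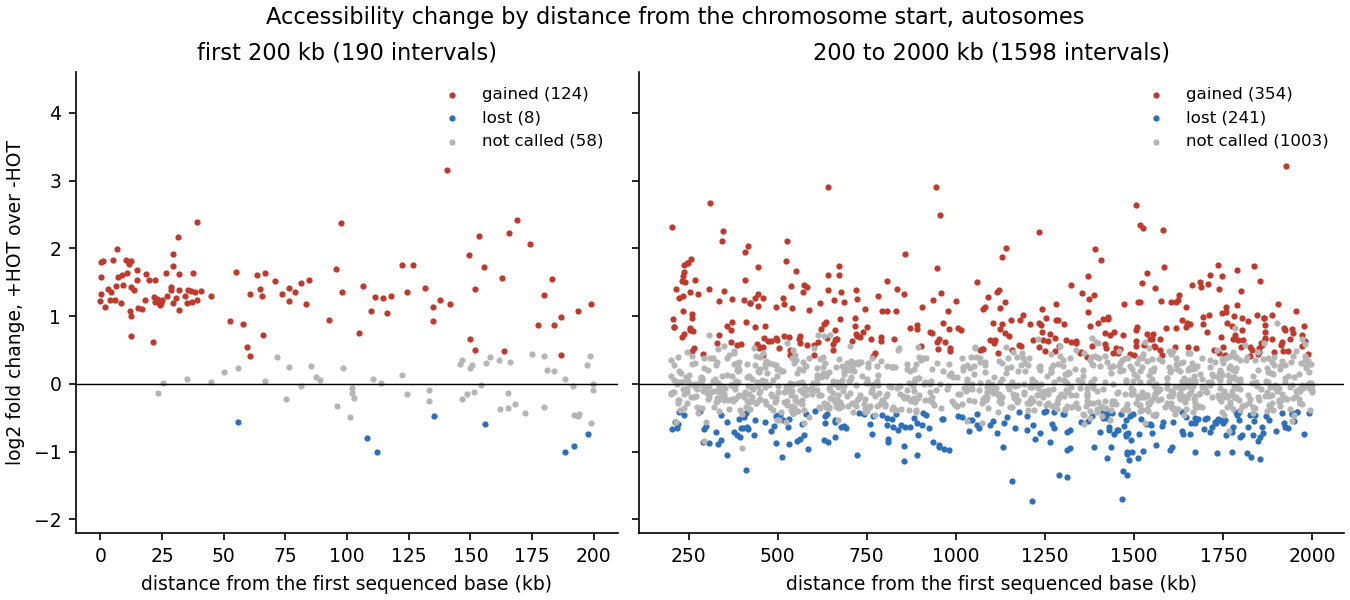
Log2 fold change of +HOT over -HOT (y axis) against distance in kb from the first sequenced base (x axis) for each interval, with the first 200 kb on the left and the rest on the right. Red points are gained, blue lost and grey not called; 124 of the 190 points on the left are red, against 354 of 1598 on the right.

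Within the first 0.2 Mb the share of gained intervals declined with distance, except for 52.9% from 125 to 150 kb after 47.4% in the window before. In the first 25 kb, 43 of 44 intervals on 9 chromosomes were gained and 0 lost, with a median log2 fold change of 1.34. From 25 to 50 kb 23 of 26 were gained, from 50 to 75 kb 13 of 18, and from 75 to 100 kb 10 of 18. In the last window, from 175 to 200 kb, 8 of 25 were gained and 3 lost, with a median of 0.18. The windows hold different chromosomes, since the first interval lies at different distances, so distance and chromosome cannot be fully separated.

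**Figure D2:**
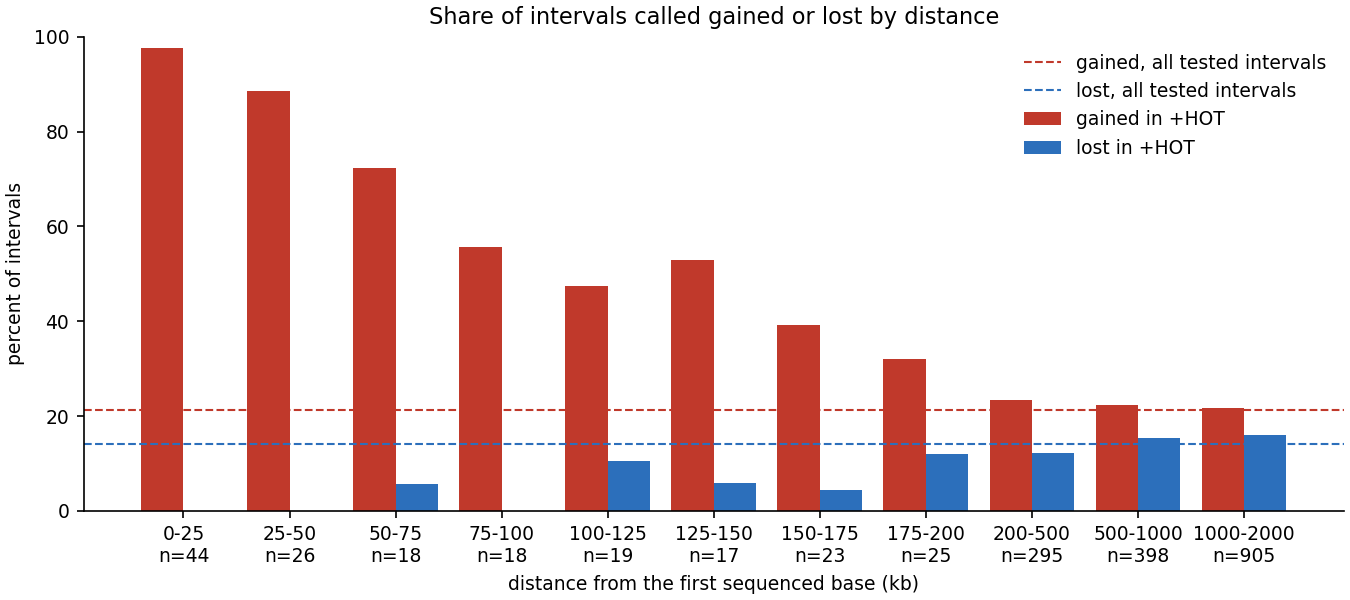
Percent of intervals called gained (red) or lost (blue) in +HOT (y axis) by distance in kb from the first sequenced base (x axis), with the number of intervals under each pair of bars. Dashed lines give the shares over all tested intervals, 21.3% gained and 14.2% lost; the red bar stands at 97.7% in the first 25 kb and at 21.7% in the last bin, past 1000 kb.

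The same was visible in the reads themselves. Intervals before 3.2 Mb took 0.533% and 0.714% of the reads in the +HOT libraries, against 0.266% and 0.344% in the -HOT libraries. The lower +HOT library stood above the higher -HOT library, and the ratio of the mean levels was 1.94, with 1.50 to 2.51 over the 4 library pairs. With 2 libraries against 2, the smallest two-sided p of an exact permutation test is 0.333, so these shares are given without one. Intervals between 3.2 and 5 Mb took 1.56% and 1.55% of the +HOT reads, against 1.59% and 1.59% of the -HOT reads.

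The second library of each group lay above the first one at these sites, which bears on the size of the spread. Over the 190 intervals, the second +HOT library exceeded the first in 134 and the second -HOT library exceeded the first in 137, against 57918 and 59619 of all 119603 tested intervals. The median ratio of the second to the first library was 1.24 in +HOT and 1.28 in -HOT, beside 0.992 and 0.999 over all tested intervals. The +HOT values were above both -HOT values in 146 of the 190 intervals. According to the protocol, 1 -HOT library needed fewer PCR cycles than the other 3, and its part in this was not tested.

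Strong intervals stood out most. Of the 53 intervals before 3.2 Mb with a mean of 20 CPM or more, 42 were gained, or 79.2%. Past 3.2 Mb 3 of 231 intervals of that strength were gained, and over all tested intervals 151 of 12122, or 1.25%. Most of the 42 belong to blocks described below, the satellite repeats of chromosome 9 and a run across Sfi1 on chromosome 11. Their share thus describes few loci. Among the weakest intervals, under 2 CPM, the shares lay closer, at 62.1% before 3.2 Mb, 37.2% past it and 31.4% over all tested intervals.

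The 16 chromosomes with an interval before 3.2 Mb did not all behave alike. On chromosomes 3, 9, 15, 16, 18 and 19 every such interval was gained, 47 in all, and on chromosome 4 it was 11 of 12. Chromosome 11 had 27 gained and 4 lost of 38, and chromosome 17 had 17 gained of 25. By contrast chromosome 2 had 2 gained and 4 lost of 18, chromosome 12 had 2 gained of 11, chromosome 10 had 8 of 20 and chromosome 8 had 0 of 2. Chromosomes 1, 13 and 14 had no interval before 3.2 Mb.

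**Figure D3:**
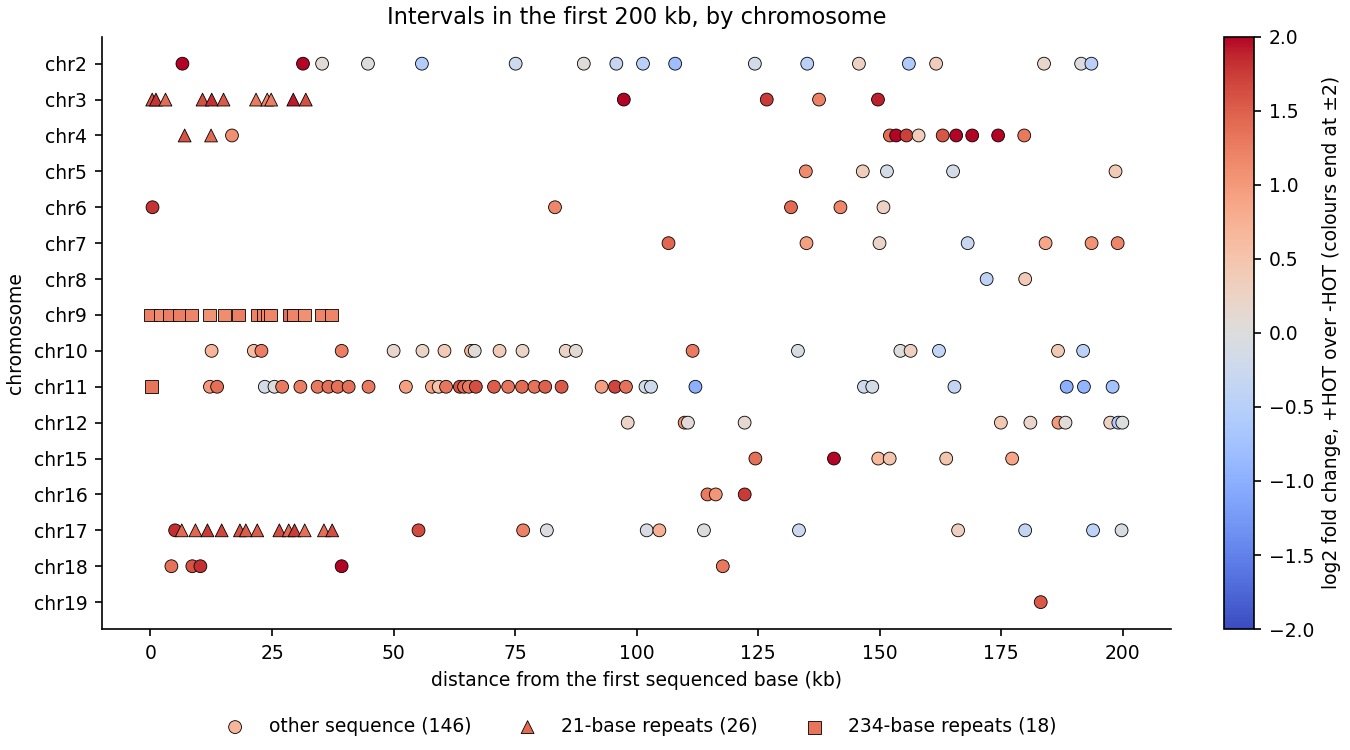
Each interval of the first 200 kb placed by distance in kb from the first sequenced base (x axis) on its chromosome (y axis), coloured by log2 fold change of +HOT over -HOT. Triangles are the 26 intervals of 21-base repeats, squares the 18 of 234-base repeats and circles the other 146; the triangles and squares are all red.

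The outermost interval of each chromosome gives the same picture in small. It was gained on 15 of 19 chromosomes and lost on 1. Gains in these first intervals ranged between 0.70 on chromosome 10 (3012570 to 3013635) and 1.997 on chromosome 2 (3006570 to 3006996) on the log2 scale. The chromosome 2 interval, outside genes and unique in sequence throughout, held 2.42 and 2.71 CPM in +HOT, against 0.64 and 0.64 CPM in -HOT. The strongest after chromosome 9 was on chromosome 18 (3004300 to 3006613), with 171.1 and 227.2 CPM in +HOT, against 60.4 and 95.7 CPM in -HOT. First intervals on chromosomes 1, 8 and 12 were not called, and the one lost lay at the promoter of Gm8108 on chromosome 14, the single interval that this chromosome has before 5 Mb.

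The 234-base repeats covered the start of chromosome 9 from 3000005 to 3038223 in 17 intervals and the first interval of chromosome 11 (3000224 to 3004730). An interval was counted here when at least 40% of its bases matched the base 234 positions on, where 0.1% of all intervals exceed 38.3%. The cutoff was set after the values were seen, so no test is given. All 18 were gained, with log2 fold changes between 1.07 and 1.38, while their mean level ran between 15.7 and 258.9 CPM. A median of 7.91% of their words are unique, so reads can be shared between them. The 18 are therefore not separate observations. Their GC content was 34.05% to 37.1%. Homer, in the lists the authors deposited, which cover only sites they called, names the major satellite GSAT_MM at 14 of the 15 intervals that it annotates.

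The highest level of all 1788 intervals was inside this block, at 3024762 to 3028041 of chromosome 9. It held 289.7 and 431.2 CPM in +HOT, against 123.0 and 191.5 CPM in -HOT (360.4 ± 100.1 and 157.3 ± 48.4, mean ± SD, n = 2 each). The log2 fold change was 1.20 (SE 0.11, adjusted p = 1.6e-17). As the spread is drawn partly from other intervals, this SE and p understate the gap between libraries of a group here. Over the 18 intervals the summed level was 1603 and 2413 CPM in +HOT, against 692.5 and 1064 CPM in -HOT, with ratios of 1.51 to 3.48 over the library pairs. The groups did not overlap, although the second library was about as far above the first within a group, with a ratio of 1.51 in +HOT and 1.54 in -HOT. These repeats carry gene models all the same: 13 models with names starting in Gm, 12 of them annotated as protein-coding, have a start within 3000 bp of a satellite interval of chromosome 9, and all 11 intervals involved were gained by edgeR, 10 by DESeq2.

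The 21-base repeats opened chromosome 3 with 11 intervals (3000358 to 3033272), chromosome 17 with 13 (3006435 to 3038768) and chromosome 4 with 2 (3007028 to 3012936). Here at least 55% of the bases had to match the base 21 positions on, where 0.1% of all intervals exceed 41.2%. All 26 were gained, with log2 fold changes between 1.18 and 1.91 and a median of 1.55. GC content was 46.8% to 51.3%, close to the 45.9% median of all tested intervals, and a median of 90.5% of their 31-base words occur only once in the genome. Summed over the 26, the level was 238.6 and 331.6 CPM in +HOT, against 78.1 and 116.3 CPM in -HOT, a ratio of 2.93.

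The largest of them, on chromosome 4 from 3007028 to 3011678, held 75.8 and 107.0 CPM in +HOT, against 25.5 and 35.6 CPM in -HOT. Its log2 fold change was 1.58 (SE 0.10, adjusted p = 2.3e-26). On chromosome 17 the printed stretch belongs to 3019616 to 3021019, with 9.41 and 13.004 CPM in +HOT, against 3.17 and 4.62 CPM in -HOT. On chromosome 3 it belongs to 3010705 to 3011802, with 7.06 and 7.81 CPM in +HOT, against 1.92 and 2.91 CPM in -HOT. In each of these 3 intervals both +HOT values lay above both -HOT values.

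**Figure D4:**
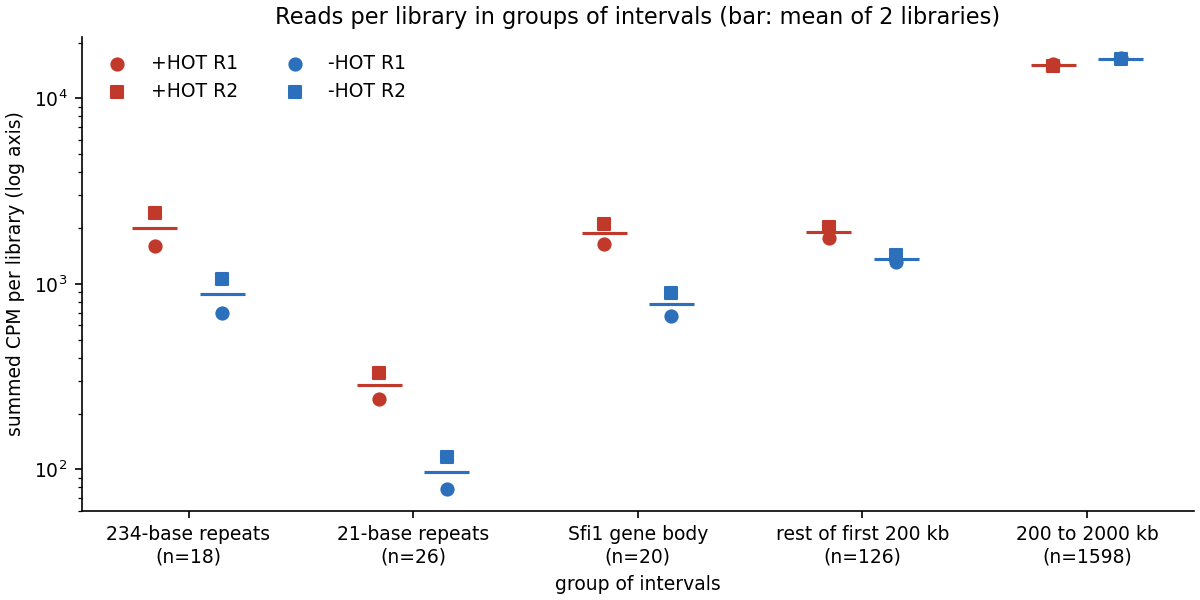
Summed CPM per library on a log axis (y axis) for 5 groups of intervals (x axis), +HOT in red left of -HOT in blue, circles for the first and squares for the second library and a bar at the mean of 2. Both red points lie above both blue points in the 4 groups of the first 200 kb, while in the 1598 intervals beyond the values are 15352 and 14924 CPM in +HOT, against 16458 and 16216 CPM in -HOT.

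Without the 44 intervals of both kinds, 80 of 146 were gained, or 54.8%, and 8 lost, with a median log2 fold change of 0.68. These 146 are not free of repeats, since 2 gained ones, on chromosomes 6 and 18, hold a tandem repeat of 22 bases. Major satellite remains among them too. Homer names GSAT_MM at 16 of the 113 intervals before 3.2 Mb that it annotates. Only 14 of these were left out here as satellite repeats, and 0 as 21-base repeats. Of the 73 among the 146 in which at least 90% of the 31-base words are unique, 30 were gained and 8 lost, with 41.1% gained and a median of 0.24. Sequence found only once was nearer to the background still. Of 41 intervals with no repeated word, 12 were gained and 7 lost, or 29.3% and 17.1%. Among all tested intervals of that kind it was 22.7% and 13.4%. Of the gained ones, 12 of those 30 and 4 of these 12 lie in Sfi1 on chromosome 11, described below. Both shares thus rest in part on 1 locus. Without both kinds of repeat and chromosome 11, 54 of 109 intervals were gained and 4 lost, with a median of 0.42. Of 37 intervals in which under 50% of the words are unique, 29 were gained and 0 lost, against 459 and 146 of 1088 such intervals in the whole set.

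A repeated sequence was not always gained. The third highest level before 5 Mb was on chromosome 17, at 3081533 to 3084792, with 165.2 and 174.5 CPM in +HOT, against 171.8 and 176.7 CPM in -HOT. Its log2 fold change was -0.04 (SE 0.09, adjusted p = 0.78), although only 45.2% of its words are unique. A related interval on chromosome 11 (3023516 to 3024416), 51.3% of whose words are found in it, held 98.6 and 92.9 CPM in +HOT, against 108.1 and 103.3 CPM in -HOT. In both, the groups were closer to each other than in any satellite interval.

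A gene changed along its whole length was Sfi1, which encodes a centrosomal protein needed for spindle assembly and lies at the start of chromosome 11 (3031853 to 3093466, minus strand). All 20 intervals centred in it were gained, with log2 fold changes between 0.54 and 1.63 and a median of 1.36. They belong to a run of 24 neighbouring gained intervals that reaches from 3027080 to 3099749. The strongest, in an exon at 3044855 to 3048190, held 305.0 and 348.5 CPM in +HOT, against 123.8 and 143.5 CPM in -HOT (log2 fold change 1.29, SE 0.10, adjusted p = 1.8e-22). The next strongest, in an exon at 3084559 to 3087633, held 181.6 and 233.7 CPM in +HOT, against 59.1 and 84.5 CPM in -HOT. At the Sfi1 promoter (3092792 to 3094281) the values were 103.0 and 136.3 CPM in +HOT, against 54.7 and 69.2 CPM in -HOT. The groups were apart in all 20 intervals. Of the 20, 4 held no repeated word, and their log2 fold changes were 1.29 to 1.61. The other 16 held repeated words, and Sfi1 was also listed among multi-copy gene families. Words were counted in the reference only, so copies missing from it would not show. The median level of the 20 was 50.0 CPM, against 4.51 CPM over all tested intervals. Any part of copy number in this was not tested.

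The run ended abruptly. The next interval, 2067 bases on at the promoter of Eif4enif1, a transport factor for the cap-binding protein eIF4E, held 14.8 and 15.6 CPM in +HOT, against 18.8 and 14.4 CPM in -HOT (log2 fold change -0.13). The promoter of Drg1, a GTPase linked to translation, had -0.35 and was not called. That of Patz1, a zinc finger transcription factor, was lost, with 23.9 and 20.5 CPM in +HOT, against 45.4 and 43.6 CPM in -HOT (log2 fold change -1.001, SE 0.10, adjusted p = 6.8e-16). Of the 23 intervals past Sfi1 and before 3.3 Mb, 3 were gained and 7 lost, and the 3 gained are the last of the run. Drg1 overlaps the start of Sfi1 on the same strand, and reads in the overlap cannot be given to either.

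**Figure D5:**
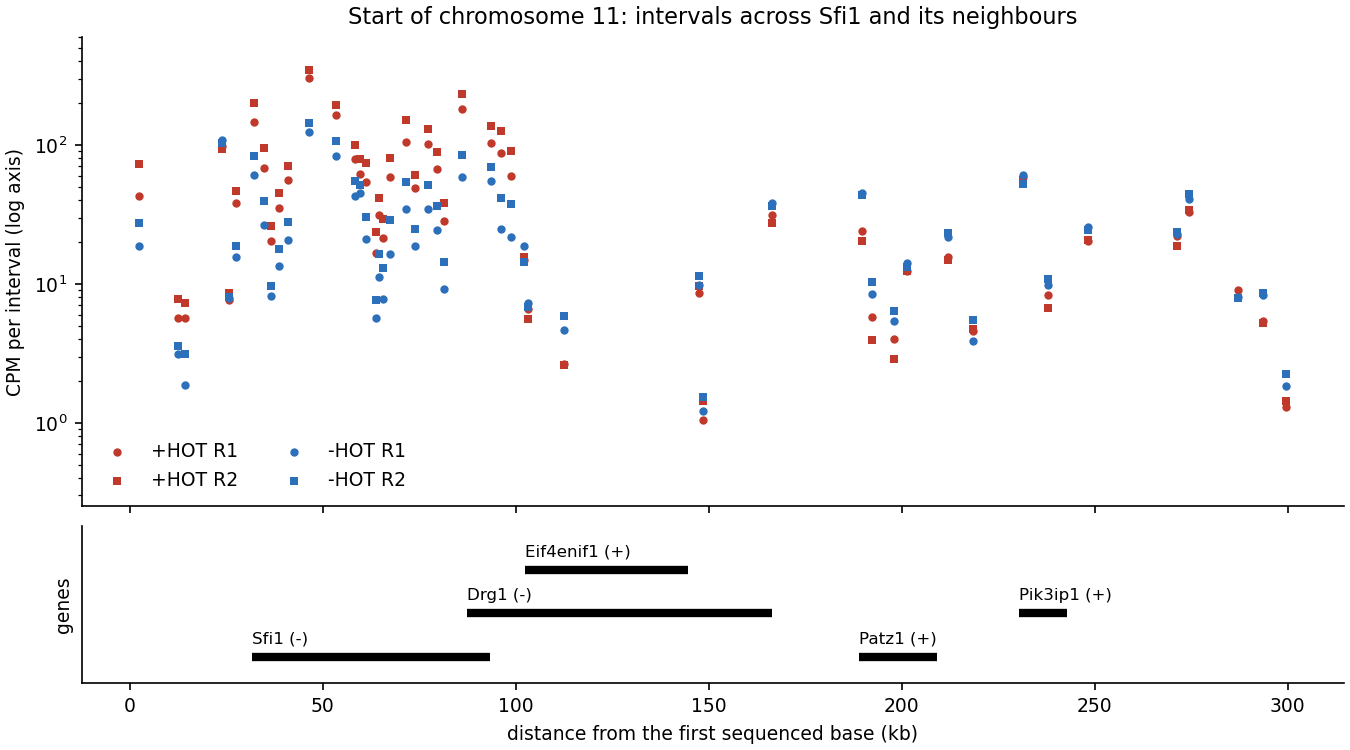
CPM per interval on a log axis (y axis, upper panel) for +HOT (red) and -HOT (blue) libraries, circles for the first and squares for the second, against distance in kb from the first sequenced base of chromosome 11 (x axis); the lower panel shows the genes with their strand. Red lies above blue across Sfi1, up to 305.0 and 348.5 CPM in +HOT against 123.8 and 143.5 CPM in -HOT, and the colours meet or change order from Eif4enif1 on.

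Chromosome 2 showed the change ending sooner. Its first interval and the next one, at a start of Fam171a1 (3031370 to 3031967; 4.11 and 4.38 CPM in +HOT, against 0.92 and 0.97 CPM in -HOT), were gained, with log2 fold changes of 1.997 and 2.16. The neighbouring promoter interval of the same gene, at 3035302 to 3037318, held 23.2 and 17.9 CPM in +HOT, against 21.4 and 17.6 CPM in -HOT. Runs of gained intervals counted from the chromosome start were longest on chromosome 3 (18 intervals, to 3761920), chromosome 9 (17), chromosome 17 (16) and chromosome 16 (14, to 3351893).

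Among single intervals, the largest gains were mostly weak in -HOT and far from promoters. The largest was in an intron of Syne1, which encodes the nuclear envelope protein nesprin-1 (chromosome 10, 4924622 to 4925071), with 4.00 and 3.39 CPM in +HOT, against 0.44 and 0.33 CPM in -HOT and a log2 fold change of 3.22 (SE 0.32, adjusted p = 5.1e-16). An intergenic interval 77.8 kb from the selenoprotein P gene Sepp1 on chromosome 15 (3140581 to 3140855) followed at 3.15, with 0.81 and 1.17 CPM in +HOT, against 0.14 and 0.07 CPM in -HOT. An intron of Hnf4g, a nuclear receptor of gut and kidney (chromosome 3, 3640672 to 3640942), had 2.91. The first exon of Ucn3, a peptide hormone of the corticotropin-releasing family (chromosome 13, 3944424 to 3944658), had 2.90, with 1.16 and 0.68 CPM in +HOT, against 0.08 and 0.17 CPM in -HOT. The other 6 of the 10 lay between genes, near Alkbh8 at 2.66, Sox17 at 2.64, Cd209c at 2.50, Vmn1r3 at 2.42, Vmn1r238 at 2.39 and Hnf4g at 2.37. Only 4 of the 10 began before 3.2 Mb.

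The 10 largest losses, taking at most 2 per chromosome, were all past 3.2 Mb, and 9 of them lay in genes. That limit left out further intervals of chromosome 6 that fell more than the last 3 given, the Ppp1r9a promoter at -1.11 among them. The Gm8108 promoter interval on chromosome 14 (4213438 to 4213970) had a log2 fold change of -1.72, but only 37.0% of its words are unique. Next came an intron of Col1a2, a chain of type I collagen and a marker of fibroblasts (chromosome 6, 4464924 to 4466178), with 2.07 and 2.48 CPM in +HOT, against 7.94 and 6.76 CPM in -HOT and a log2 fold change of -1.71 (SE 0.18, adjusted p = 6.4e-14). A second Col1a2 intron (4479520 to 4480168) had -1.35. An intron of Adcy3, an adenylyl cyclase, had -1.44 and an intron of Cacng8, a calcium channel gamma subunit, -1.27. The Cacng8 interval was the strongest of the 10, with 10.0 and 12.6 CPM in +HOT, against 28.5 and 25.6 CPM in -HOT (chromosome 7, 3411223 to 3413001). The rest lay in Elavl1 (-1.37), Chka (-1.13), Rgs17 (-1.10) and Isoc2a (-1.08) and near Gm11032 (-1.09).

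Promoters past 3.2 Mb followed the promoters of the whole genome. Promoter intervals, centred within 3000 bp of a start of a protein-coding or lincRNA gene, were 403 of the 1788, or 22.5%. Before 3.2 Mb 20 of 30 were gained and 3 lost. The gained ones include the 11 at Gm gene models in the chromosome 9 satellite and that of Sfi1. In these 30 a median of 18.6% of the words are unique, against 100% in all tested promoter intervals. Between 3.2 and 5 Mb 24 of 373 were gained and 97 lost, or 6.43% and 26.0%, against 6.89% gained and 23.7% lost among all 20172 tested promoter intervals.

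The genes of these regions were read by lists grouped by what the genes do. The lists were chosen with earlier results of these data known, so their shares are descriptions and not tests. Of 10 chromatin regulators, among them the heterochromatin methyltransferases Suv39h2, Suv420h1 and Suv420h2, 0 promoters were called by edgeR and 0 by DESeq2, with 1 higher and 2 lower at an unadjusted p under 0.05. Of all tested promoter intervals edgeR called 6.89% gained and 23.7% lost, and a list of 10 is short to set beside these shares. The Suv39h2 promoter held 25.5 and 22.8 CPM in +HOT, against 27.9 and 26.5 CPM in -HOT (log2 fold change -0.17). The Suv420h2 promoter held 49.1 and 47.5 CPM in +HOT, against 63.0 and 59.5 CPM in -HOT; its log2 fold change of -0.34 had an adjusted p of 0.0017 but stayed under the fold minimum. The same holds for Ncoa1, a nuclear receptor coactivator, at -0.38.

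Promoter intervals were found for 15 of 18 fibroblast matrix, ligand and receptor genes. Of these 7 were lost (46.7%, against 23.7% of all promoter intervals) and 0 gained, also by DESeq2, and 9 were lower at an unadjusted p under 0.05; the median log2 fold change was -0.39, against -0.21 over all promoter intervals. Col1a2 had 40.9 and 37.7 CPM in +HOT, against 65.2 and 61.0 CPM in -HOT (log2 fold change -0.68). The cytokine genes Lif and Il11 had -0.66 and -0.58, the Wnt co-receptor gene Lrp5 -0.62, the kinase gene Map3k8 -0.56, the TGF-beta pseudoreceptor gene Bambi -0.47 and the insulin receptor gene Insr -0.41. In the imprinted domain of chromosome 6, 6 of 9 listed genes had a promoter interval, on 5 intervals, and 4 of the 5 were lost by edgeR and by DESeq2. The interval shared by the paternally expressed genes Peg10 and Sgce held 16.1 and 18.8 CPM in +HOT, against 28.8 and 26.2 CPM in -HOT (log2 fold change -0.66). Promoters of Gng11, a G protein gamma subunit, Casd1, a sialic acid O-acetyltransferase, and Ppp1r9a, a protein phosphatase regulator, had -0.90, -0.72 and -1.11, and Bet1, a vesicle transport gene, -0.24 without being called.

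Of 14 listed cell division and DNA repair genes 11 had a promoter interval. By edgeR and by DESeq2, 3 were lost, or 27.3%, near the 23.7% of all promoter intervals, and 1, that of Sfi1, was gained. Cdk6, a kinase of the G1 phase, had 24.1 and 23.4 CPM in +HOT, against 42.3 and 42.3 CPM in -HOT (log2 fold change -0.83, the lowest of the list). The checkpoint gene Rad9 had -0.69, and the interval shared by the helicase gene Ighmbp2 and the mitochondrial ribosome gene Mrpl21 had -0.41. That shared interval was the only one lost of 7 in the ribosome and translation list, which ranged between -0.41 and -0.10.

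Multi-copy gene families had few promoters here. Sfi1, on this list too, had 1, the gained promoter given above. The Akr1c genes, a tandem cluster of aldo-keto reductases on chromosome 13, had 5, of which 4 were gained by edgeR and 3 by DESeq2, with 1 lost by both, against 6.89% of all promoter intervals gained and 23.7% lost. Akr1c20 had 1.26 and 1.99 CPM in +HOT, against 0.44 and 0.70 CPM in -HOT (log2 fold change 1.50), Akr1c12 had 1.17, Akr1c13 1.01 and Akr1c18 0.70. These 4 were weak, under 5 CPM in every library, and those of Akr1c12 and Akr1c13 lay 2311 and 2853 bp from the start. Of all tested intervals, promoters or not, 31.4% of those under 2 CPM and 30.2% of those from 2 to 5 CPM were gained. Akr1c14, the strongest, was lost, with 24.4 and 24.1 CPM in +HOT, against 33.97 and 32.2 CPM in -HOT (log2 fold change -0.45). Outside the chromosome 9 satellite, 17 promoter intervals of Gm gene models had 2 losses and 0 gains. The olfactory receptor gene Olfr15 had 0.53 without being called, and no member promoter was found for the Speer, Vmn1r, Vmn2r, Nlrp, Lilr and Pira families.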

How the data were processed

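ATAC-seq was made from 2 +HOT and 2 -HOT libraries. The authors used Trim_Galore for trimming, BWA for alignment to mm9 and MACS2 for narrow peaks, removed unmapped, duplicate, unpaired and blacklisted reads, and deposited raw read counts per interval. The blacklist is not named in the sources used here, and satellite intervals of chromosome 9 are in the table all the same. The second part of the count table has no header. Its columns, in the same order, were assigned by the constant ratio of each count column to its scaled column, which equals that of the headed column. Versions, the joining of peaks and the handling of reads with several placements: not given in the sources used here. Deposited columns of scaled counts (4) and the authors' DESeq2 fold changes and p-values were not used, nor were footprint scores. From the deposited Homer lists only the repeat class was taken. Groups come from sample titles.

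Counts were tested with edgeR 4.0.16 in R 4.3.3 (filterByExpr, TMM, quasi-likelihood, Benjamini-Hochberg over all intervals), checked on simulated counts. DESeq2 1.42.0 was an alternative, beside library totals, TMM from distal intervals, GC and abundance offsets, no filter, a replicate block, no fold minimum, each library left out, and subsets by chromosome and uniqueness. Replicates differed by more than sampling noise (chi-square per degree of freedom 2.38 in +HOT and 2.22 in -HOT). Genes are from GENCODE vM1 and 31-base words were counted on both strands of NCBIM37. Tandem periods of 10 to 300 bases were searched. Printed starts are the deposited start plus 1, as in the Homer lists.

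Named intervals were, per direction, the 10 called ones with the largest absolute log2 fold change and groups apart, at most 2 per chromosome, the 5 with the highest CPM, the first of each chromosome, and promoters of the gene lists. The intervals and lists were chosen with earlier results of these data known, and the run lengths, repeat families and unchanged repeats were picked after their values were seen. Counts cover counting error only, and medians over library pairs add 0.02 CPM.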

Additional observations from a re-analysis of the deposited data

How the results depend on the processing

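The gain at the chromosome starts held its direction under every alternative run, while the medians past 3.2 Mb lie near 0 and moved with the scaling. Over settings with all intervals, 56.3% (DESeq2) to 65.8% (library totals) of intervals before 3.2 Mb were gained. Leaving out 1 library at a time gave 113 to 123 gained, 6 to 10 lost and medians of 0.87 to 1.39 there. Without the repeat families, added after seeing the data, 80 were gained (median 0.68). With at least 90% unique words 44 were gained (median 0.42), and without chromosome 11, which has most intervals, 4 were lost instead of 8. DESeq2 called 318 gained in all, 55 from 3.5 to 4 Mb and 107 from 4 to 5 Mb, against 478, 89 and 196 by edgeR, and over all intervals 15087 gained, against 25433. Without the fold minimum 56 and 92 were lost in the middle bins.

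Medians for 3 to 5 Mb, 3.2 to 3.5, 3.5 to 4 and 4 to 5 Mb were, in that order, 0.102, 0.082, 0.055 and 0.064 with library totals and -0.044, -0.061, -0.091 and -0.081 with trimmed-mean scaling on distal intervals. These scalings set the median of all intervals to 0.071 and -0.075, and gained sites to 69.6% and 49.3% of all calls instead of 59.9%. With abundance-trended offsets the 4 medians were 0.083, 0.076, 0.037 and 0.051. With the GC trend removed they were 0.063 for all, 0.026 from 3.5 to 4 Mb and 0.025 from 4 to 5 Mb. With at least 90% unique words they were -0.021 for all, -0.029 from 3.2 to 3.5 Mb, where 43 were gained, and -0.039 from 4 to 5 Mb. From 4 to 5 Mb the median was -0.0147 with DESeq2 and 0.020 without chromosome 19. With 1 library left out the range was 0.028 to 0.055 for all, -0.059 to -0.0075 from 3.5 to 4 Mb and -0.018 to 0.011 from 4 to 5 Mb. A promoter window of 1000 bp made 17.4% of intervals promoters instead of 22.5%. The causes were not tested.

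The labels give replicates only a shared number. Deviations of the first +HOT and the first -HOT library from their group means correlated at 0.0409 over all intervals. With 2 libraries per group the second pair mirrors the first and adds no further value. Before 3.2 Mb the second library was above the first in 134 of 190 intervals in +HOT and 137 in -HOT. With the replicate block 480 intervals were gained and 252 lost, and 124 gained before 3.2 Mb, and none of 77 named intervals changed its call. Among those 77, the other settings ended between 0 and 6 calls and added between 0 and 5. Depth limits weak intervals most, since those under 2 CPM rest on few reads.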

Other observations

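Intervals that passed the same period cutoffs were also looked at outside the first 5 Mb. On unplaced contigs all 45 intervals of the 21-base period were gained (median log2 fold change 1.59), as were 43 of 43 of the long period (median 1.32), whose GC content was 34.8 to 38.7%, near that of the chromosome 9 block. Contig intervals were mostly gained with or without these periods, so the counts are not set against the 21.3% of all tested intervals. On the rest of the chromosomes 14 intervals passed the 21-base cutoff, of which 12 were gained and 0 lost. Of the 21 that passed the long one, 10 were gained and 2 lost. Over all tested intervals 21.3% were gained and 14.2% lost. GC contents of 38.1 to 63.5% for the 14 and 35.4 to 76.3% for the 21 show that they are not all the same sequences. One of AT-rich sequence, in an exon of Gm10800 on chromosome 2 (98506402 to 98507473), held 1569 and 2183 CPM in +HOT, against 882.8 and 1211 CPM in -HOT, and another, on chromosome 9 (35112802 to 35113176), held 369.8 and 538.2 CPM in +HOT, against 191.9 and 275.2 CPM in -HOT. As reads may be shared between copies, these are not independent of the intervals at the chromosome starts. The repeat classes were set after seeing the data, and no test is given.

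Another repeat, of 22 bases, was found in a gained interval on each of chromosomes 6 and 18. Beyond the edge at 5 Mb, the first interval left out on each chromosome had log2 fold changes between -1.31 and 2.48, with a median of -0.01, against -1.72 to 3.22 and 0.02 for the last one kept.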
